A study of Mus musculus with 60 samples.

Results

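The cytosolic ribosomal protein genes were followed through 60 RNA-seq libraries of mouse brain. They were taken as every gene whose symbol is Rpl or Rps with a number, with an optional a, x, y or l, or Rplp0, Rplp1 or Rplp2. This rule found 81 of the 21999 genes in the table, and 77 of them passed the filter on low counts in every fit. Of the 7 other ribosomal protein genes of the table that carry other names, 6 were kept as a separate list, among them Rpsa, Rack1 and Rpl22l1.

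The libraries came from 20 mice, each sampled in prefrontal cortex (Pfc), striatum (Str) and hippocampus (Hip). Glo1 encodes the glyoxalase that clears methylglyoxal, and the mice were either Glo1 knockouts (KO) or wild type (WT). They ate pellets with either 1.4 mg of vitamin B6 (VB6) per 100 g (normal diet) or 5 µg per 100 g (lacking diet) from 8 to 12 weeks of age, which gave 12 groups of 5 libraries. All KO libraries were labelled batch 1 and all WT libraries batch 2, so genotype and batch cannot be told apart in any comparison of KO with WT. How the knockout was made, the strain and the sex are not given in the sources used here. Library totals ran from 7640047 to 13928265 counts, at which 3 counts correspond to 0.215 to 0.393 CPM, the unit used here for counts relative to library size. RNA integrity numbers (RIN, a score of RNA intactness) ran from 7.6 to 9.3, and Glo1 had 0 to 10 counts in KO and 299 to 734 counts in WT libraries. Marker sums matched the 3 regions: striatal projection neuron markers summed to a median of 5596 CPM in Str against 121 in Pfc and 44.8 in Hip, cortical markers were highest in Pfc (1301 CPM) and hippocampal markers in Hip (978 CPM).

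Each ribosome joins a small subunit, which reads the mRNA, to a large subunit, which forms peptide bonds, and most of the proteins decorating the ribosomal RNA are encoded by a single functional gene each. Their mRNAs begin with a run of pyrimidines, the 5′ terminal oligopyrimidine (TOP) tract, through which mTORC1 and the RNA-binding protein Larp1 set how much of the mRNA is translated. In the brain these proteins are made in cell bodies and also in axons and dendrites, where local translation serves synapses. The genes have left many processed pseudogenes in the genome, and their mature mRNAs are short, which bears on how reads of them are counted.

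The members took a small and similar share of the counts of every library. In Pfc they held 0.410% at the lowest, 0.444% at the median and 0.494% at the highest of 20 libraries. In Str these shares were 0.422%, 0.470% and 0.548%, and in Hip they were 0.434%, 0.495% and 0.551%. The ranges of the 3 regions overlapped.

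Levels between genes were compared on the deposited RPKM scale, which divides counts by gene length. The length behind the deposited RPKM equalled the union exon length of GENCODE M21 for 46 of the 77 tested members, and for 6 of the other 31 it equalled that of another member, such as the length of Rps27l for Rps27a. Order and level are therefore given on both lengths, and 20 members moved by over 1.5 times between them. Among the 43 large-subunit genes the median RPKM over libraries ranged from 2.09 to 236 with a middle value of 37.8, and among the 28 small-subunit genes from 1.46 to 170.0 with a middle value of 33.3. The P-stalk genes Rplp0, Rplp1 and Rplp2, whose products recruit translation factors, lay between 7.86 and 64.5 RPKM. Rps27a, which encodes a small-subunit protein fused to ubiquitin, stood at 56.4 RPKM on the deposited scale. Divided by the union exon length, the large subunit genes had a middle value of 28.6 RPKM (2.09 to 167), the small subunit genes 20.6 (1.46 to 170.0) and Rps27a 23.3 RPKM. On either length both subunits covered about the same span of levels.

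The 5 highest members on the deposited scale were Rpl17 at a median of 236 RPKM (181 to 316 over 60 libraries), Rpl4 at 235 (178 to 288), Rps15 at 170.0 (108 to 219), Rps25 at 156 (105 to 227) and Rps21 at 152 (97.0 to 214). Their ranges over libraries overlapped from neighbour to neighbour. Over the union exon length Rps15 stayed at 170.0 RPKM and came first, followed by Rpl4 at 167, Rpl38 at 144, Rps21 at 142 and Rpl17 at 138, and Rps25 came to 25.8. At the low end of the tested members, Rps19 had a median of 1.46 RPKM (0.855 to 2.76) and Rpl18 had 2.09 (0.966 to 3.24). Also low, though not in an unbroken ranking, were Rpl30 at 5.38 (3.32 to 7.58) and Rps10 at 6.28 (1.99 to 9.71). The products of Rps19 and Rpl18 are core proteins of the small and the large subunit, and both were the lowest tested members on either length. For each of them the lengths are the same, 4685 bases for Rps19 and 4043 for Rpl18, so the union exon length is no separate check of these levels.

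Of the 6 paralogues, 2 were tested. Rps27l, the paralogue of Rps27, had a median of 31.4 RPKM and Rpl36al, the paralogue of Rpl36a, had 10.3 RPKM, which came to 14.2 and 2.7 RPKM over the union exon length. The remaining 4 did not pass the filter: Rpl10l had no count in any library, Rpl6l was at 0 in 58 of 60 libraries, Rpl39l was at 0 in 45 with 3 counts at most, and Rpl3l was at 0 in 18 with 8 counts at most. Rpl10l is known from testis and Rpl3l from striated muscle. In a library with no count, the level allowed by 3 counts is the 0.215 to 0.393 CPM given above, which covers counting error only.

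**Figure D1:**
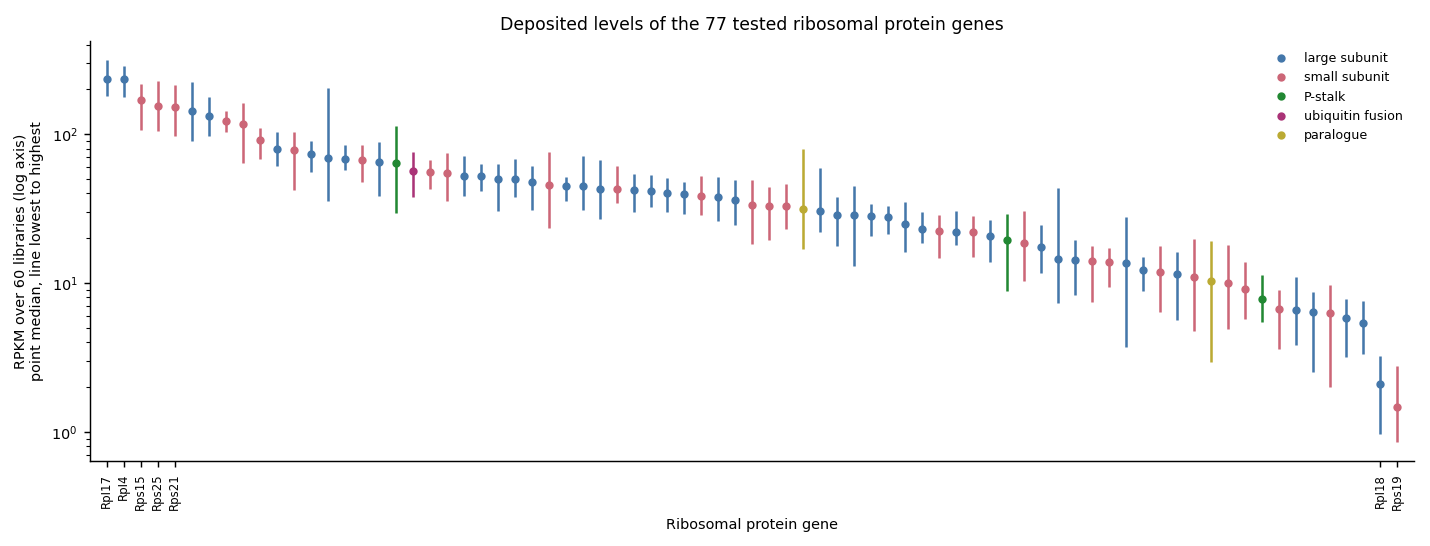
Median deposited RPKM (log axis) of the 77 tested ribosomal protein genes in order of level, with a line from the lowest to the highest of 60 libraries and colour by role. On this scale levels run from Rps19 at 1.46 to Rpl17 at 236 RPKM, with large and small subunit genes mixed throughout.

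Shared sequence was counted for each member as the share of its 75-base transcript stretches that also occur, on either strand, in transcripts of another annotated gene. Genes that overlap a member in place are counted too, so the share is not one of copies elsewhere alone. Rpl35, for example, shared 89.22% of its stretches, 21.22% with pseudogenes, and 66.16% of its exon bases overlap genes on the other strand. Rpl30 shared 65.28%, and 18.37% with pseudogenes. The median member shared 32.03% of its stretches, and 2 members shared none. On the deposited scale, the 24 members that shared at least 50% had a median of 37.0 RPKM (5.38 to 156), the 53 below that limit had 33.1 RPKM (1.46 to 236), and the 22 members sharing under 20% had 38.1 RPKM. How reads that fit several places were counted is not given in the sources used here, so the level of a member with many shared stretches is uncertain.

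RefSeq promoter entries (GRCm38.p6) matched 60 of the 81 members. The windows below span 30 bases before to 10 bases from the annotated start of 4 genes on which the results by region and genotype turn, and capitals mark the longest pyrimidine run.
Rpl31, chr1:39367821-39367860, plus strand: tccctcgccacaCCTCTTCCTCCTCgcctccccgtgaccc
Rps15a, chr7:118116138-118116177, minus strand: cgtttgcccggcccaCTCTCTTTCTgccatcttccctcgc
Rpl38, chr11:114668550-114668589, plus strand: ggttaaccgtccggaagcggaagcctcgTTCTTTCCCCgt
Rps2, chr17:24720033-24720072, plus strand: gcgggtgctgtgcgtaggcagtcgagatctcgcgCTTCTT
Rpl31 and Rps15a carry their run a few bases before the annotated start, Rpl38 across it and Rps2 after it. A C followed by 6 pyrimidines within 10 bases before to 15 after the start was present in 29 of 60 members (48.33%), against 13.2% of 27025 genes. A C followed by 4 pyrimidines exactly at the annotated start was present in 13 members (21.67%) against 3.01%. In the 300-base promoters, on both strands, the ETS core CCGGAAG was found in 24 members (40.0%) against 9.93% of all genes, and the YY1 core GCCATCTT in 5 (8.33%) against 3.19%. The TATA box letters TATAAA were found in 6 members (10%) against 15.67%. These are letter matches and not sites of binding.

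Libraries of a group differed from each other by about as much for ribosomal protein genes as for other genes. The standard deviation within groups, on the log2(CPM + 1) scale, had a median of 0.198 over the 77 members and 0.199 over 13048 genes. Rpl39, a small protein lining the exit tunnel, varied most at 0.586, followed by Rpl13 at 0.581, Rpl36 at 0.435, Rps27l at 0.408 and Rps28 at 0.391. Rps24 varied least at 0.0836, before Rpl7 at 0.0894 and Rps6, the substrate of S6 kinase, at 0.102. The most variable members often moved to the same side in a library: Rpl13 and Rps28 were each on the same side of their group mean as Rpl39 in 51 of 60 libraries, Rpl38 in 49 and Rps25 in 48. Over the other 76 members this count had a median of 29 and ran from 11 to 51. Rps29 (14) and Rpl36 (17) lay near the low end.

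Between regions, ribosomal protein genes differed mostly by small amounts and with Str higher than Pfc. In edgeR's quasi-likelihood test with Benjamini-Hochberg adjustment, 35 of 77 members (45.5%) were higher in Str than in Pfc and 2 (2.6%) were lower, where 35.9% of all 13930 genes tested were higher and 34% lower. The members' median log2 fold change was 0.12 and that of all genes 0.01, and 63 of 77 members were above 0. Scaling by library totals without TMM factors gave 26 higher and 3 lower, and limma on log2(RPKM + 1) also gave 26 and 3. The members' median was then 0.10 and 0.08, where that of all genes was −0.01 in both. Under these 2 settings the members' median was larger in Hip against Pfc, at 0.14 and 0.13. The share of all genes higher or lower in these fits is not given here. By role, 20 large-subunit and 13 small-subunit genes were higher, with Rps27a and 1 of 3 P-stalk genes, and neither tested paralogue passed. Requiring in addition a log2 fold change of at least 0.3 left 9 of the 37 passing members and 6739 of the 9743 passing genes.

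Rpl31, which sits beside the exit of the peptide tunnel, showed the largest rise in Str. It had 51.7 CPM at the lowest, 70.8 at the median and 77.6 at the highest of 20 Pfc libraries, 82.6, 106 and 118 in Str, and 54.3, 66.5 and 79.2 in Hip. Every Str library lay above every Pfc and Hip library, while Pfc and Hip overlapped. The log2 fold change of Str against Pfc was 0.56 ± 0.05 (SE; edgeR adjusted p = 1.66e-14), a 1.48-fold difference, and that of Hip against Pfc was −0.06 (adjusted p = 0.314). Rpl31 lies at chr1:39367851-39371911 (GRCm38), and 25.27% of its exon bases overlap Tbc1d8 on the opposite strand, whose mean was 19.4 CPM in Pfc, 125 in Str and 11.3 in Hip. The strand setting of the counting is not given in the sources used here, so reads from the overlap cannot be told apart.

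Rps15a, a small-subunit protein that binds the central domain of its ribosomal RNA, went the opposite way. It had 78.0 CPM at the lowest, 92.0 at the median and 101 at the highest in Pfc, 51.4, 59.5 and 73.9 in Str, and 74.5, 96.7 and 104 in Hip. All 20 Str libraries lay below all libraries of the other regions. The log2 fold change was −0.58 ± 0.04 (SE; edgeR adjusted p = 6.78e-21) for Str against Pfc and 0.65 ± 0.04 (adjusted p = 4.05e-23) for Hip against Str, and Hip against Pfc gave 0.07 (adjusted p = 0.108). Rps15a lies at chr7:118104374-118116147 and shares 3.5% of its stretches with other genes.

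The other named members of the Str against Pfc contrast overlapped between regions. Rps9, at the mRNA entry channel, averaged 25.7 ± 3.74 CPM in Pfc and 34.99 ± 4.55 in Str (SD, n = 20), a log2 fold change of 0.45 (adjusted p = 5.53e-09). Rps27, a zinc-finger protein of the small subunit, averaged 58.2 ± 8.05 and 76.3 ± 8.66, a log2 fold change of 0.39 (adjusted p = 1.09e-09). Rpl23a, at the tunnel exit, averaged 39.1 ± 5.03 and 50.6 ± 6.35, a log2 fold change of 0.37 (adjusted p = 4.91e-08), with 81.69% of its stretches shared and 59.74% of its exon bases overlapping Tlcd1 on the other strand, and it did not pass in WT mice on the normal diet alone (adjusted p = 0.0614). Besides Rps15a, only Rpl21 passed as lower in Str, at 136 ± 11.9 CPM in Pfc and 122 ± 10.04 in Str, a log2 fold change of −0.17 (adjusted p = 2.23e-05).

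In Hip against Pfc, 22 members (28.6%) were higher and 1 (1.30%) lower, where 30.2% of all genes were higher and 29.1% lower. The members' median was 0.08 against 0.01 over all genes. Scaling by library totals without TMM factors gave 38 higher and 0 lower, and limma on log2(RPKM + 1) gave 35 and 0. The median over all genes moved up as well. Without TMM factors it was 0.07 and that of the members 0.14, and with limma these were 0.04 and 0.13. Rps27l had the largest rise, with 10.6 ± 3.51 CPM in Pfc and 14.8 ± 4.91 in Hip (SD, n = 20), a log2 fold change of 0.50 ± 0.13 (SE; edgeR adjusted p = 9.57e-04). Rpl22 followed at 0.29 (adjusted p = 0.00171) and Rps13 at 0.25 (adjusted p = 1.40e-06). Rpl12, of the P-stalk base, was lower in Hip by a log2 fold change of −0.14 (adjusted p = 0.00383), a call lost with limma and without TMM factors. In WT mice on the normal diet alone, Rps27l (adjusted p = 0.290) and Rpl22 (adjusted p = 0.205) did not pass. No member separated the 20 Hip from the 20 Pfc libraries, and how many of all genes separate a pair of regions is not given here.

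In Hip against Str, 8 members (10.4%) were higher and 15 (19.5%) lower, where 32.9% of all genes were higher and 33.6% lower, but this split depended on the scaling: without TMM factors 15 were higher and 6 lower, and with limma on log2(RPKM + 1) 14 and 7. The members' median was −0.05 with TMM factors, where that of all genes was −0.01, and 0.03 without them, where that of all genes was 0.08. In both scalings the members' median was below that of all genes. Rps15a (above), Rps27l at 0.32 (adjusted p = 0.0331), Rpl36al at 0.27 (adjusted p = 0.0202) and Rpl21 at 0.24 (adjusted p = 7.14e-09) were the named members higher in Hip. Rpl31 at −0.62 (adjusted p = 3.21e-16), Rps27 at −0.31 (adjusted p = 3.80e-07), Rps9 at −0.24 (adjusted p = 4.71e-04) and Rps23, of the decoding centre, at −0.23 (adjusted p = 0.00202) were the named members lower in Hip. The Rps27l difference had an adjusted p of 0.165 with RIN as a covariate and was lost in 7 of 20 fits with all libraries of 1 mouse left out. In WT mice on the normal diet alone, Rps27l, Rpl36al, Rps9 and Rps23 did not pass (adjusted p = 0.293, 0.560, 0.309 and 0.190), and the Rps23 call was lost with limma and without TMM factors.

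**Figure D2:**
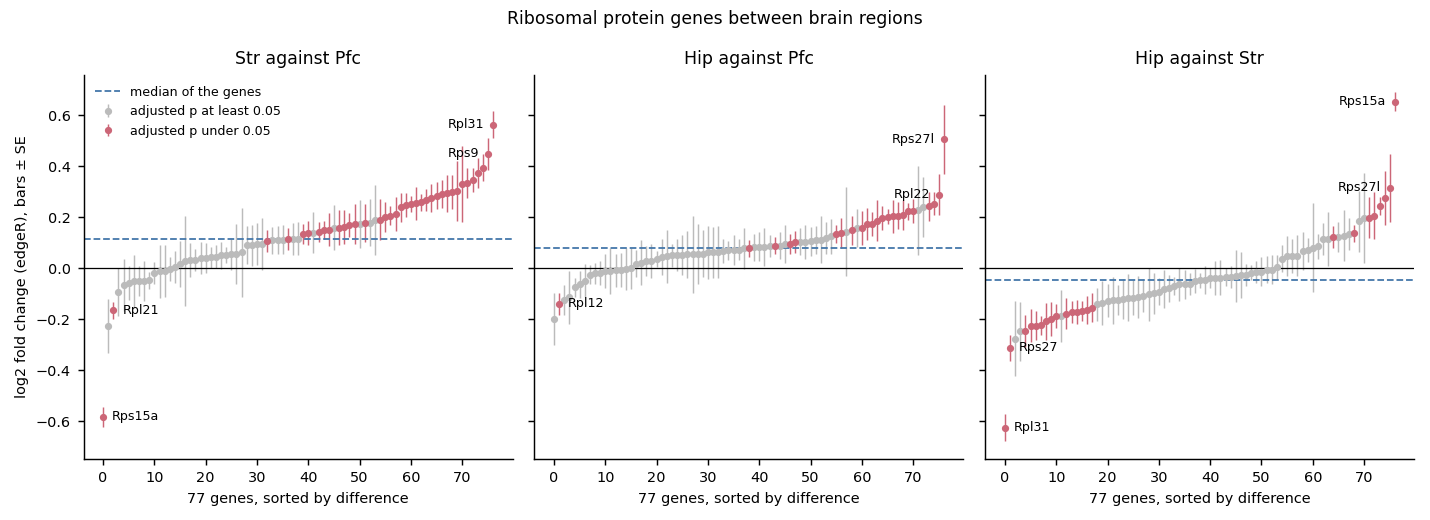
Log2 fold change ± SE of the 77 ribosomal protein genes in each contrast of regions (20 libraries a region), sorted within each panel, with adjusted p under 0.05 in red and the members' median dashed. In Str against Pfc 63 of 77 lie above 0, with Rpl31 and Rps15a at the ends; in Hip against Str 24 lie above 0, which becomes 46 without TMM factors.

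The pathway lists were counted in the same contrasts. Of the 6 listed ribosomal proteins that the symbol rule leaves out, 2 were higher in Str than in Pfc (Rpsa at 0.31, adjusted p = 9.30e-07, and Rpl22l1 at 0.25, adjusted p = 0.0241) and the list's median was 0.12. Rps3a1, the gene of this kind that was not on the list, was also higher than in Pfc in edgeR's test. It stood at 0.16 in Str (adjusted p = 0.0373) and at 0.22 in Hip (adjusted p = 0.00412). Among 18 other products of TOP mRNAs, such as elongation factors, 9 were higher and 4 lower in Str than in Pfc. For 26 ribosome assembly factors these counts were 6 and 7, for 11 RNA polymerase I genes 4 and 1, and for 14 genes of mTORC1 and TOP control 2 and 7. Among 293 short transcripts, tested genes under 1000 bases that are not members, 62 were higher and 79 lower with a median of −0.04, and with the limit set on the union exon length the counts were 35 and 45 of 173. In Hip against Pfc, the counts were 9 and 1 for TOP products, 5 and 4 for assembly factors, 2 and 3 for RNA polymerase I and 2 and 8 for mTORC1 and TOP control.

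The regions also differed in the cells they hold. Oligodendrocyte markers summed to a median of 2313 CPM in Pfc (1617 to 3216), 6309 in Str (5494 to 7166) and 4698 in Hip (3590 to 6354), and the 5 general neuronal markers summed to 13723, 8100 and 10200 CPM. Astrocyte markers summed to 2005, 1576 and 2581 CPM. Choroid plexus markers summed to 4.72 CPM in Pfc (at most 6.72), 21.6 in Str (at most 27.0) and 62.2 in Hip, where single libraries reached 1113, 1319, 1603 and 402 CPM in the 4 groups. Fewer cells of a type and less RNA per cell cannot be told apart in such tissue. The part of cell composition in the ribosomal protein differences was not tested.

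Between genotypes, Rps2 was the member that was lower in KO in all 3 regions. Rps2 belongs to the small subunit and lies at the channel through which mRNA enters. In Pfc it had 16.1, 24.4, 29.9, 34.98 and 36.0 CPM in WT on the normal diet and 13.3, 30.1, 31.2, 34.4 and 36.2 in WT on the lacking diet, against 10.5, 11.8, 12.1, 19.0 and 20.7 in KO on the normal diet and 13.5, 15.4, 16.4, 16.8 and 20.4 in KO on the lacking diet. In 8 of 10 WT libraries Rps2 was above the highest KO library, and 2 low WT libraries made the genotypes overlap. Means were 28.7 ± 8.21 CPM in WT and 15.7 ± 3.66 in KO (SD, n = 10), a log2 fold change of −0.89 ± 0.15 (SE; edgeR adjusted p = 0.00198).

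In Str, Rps2 had 22.4, 24.6, 30.3, 31.4 and 33.4 CPM in WT on the normal diet, 26.6, 27.0, 27.8, 30.6 and 33.5 in WT on the lacking diet, 9.60, 12.3, 16.2, 17.3 and 22.6 in KO on the normal diet and 9.89, 14.2, 15.7, 15.8 and 17.6 in KO on the lacking diet. A single KO library, of mouse 390, reached into the WT range. The log2 fold change was −0.92 ± 0.12 (SE; edgeR adjusted p = 1.66e-04), a 1.89-fold difference. In Hip the values were 19.2, 19.4, 24.4, 31.6 and 31.7 CPM in WT on the normal diet, 20.5, 25.5, 25.6, 29.0 and 32.5 in WT on the lacking diet, 12.2, 12.9, 13.3, 17.8 and 21.6 in KO on the normal diet and 11.4, 12.2, 12.7, 14.2 and 17.8 in KO on the lacking diet. Again mouse 390 had the highest KO value and only it exceeded the lowest WT library, and the log2 fold change was −0.83 ± 0.12 (adjusted p = 7.26e-04). Leaving out any 1 library kept Rps2 past the threshold in each region. With the normal diet alone, 5 mice against 5, it did not pass in Pfc (−0.95, adjusted p = 0.113), Str (−0.84, adjusted p = 0.0919) or Hip (−0.70, adjusted p = 0.380), and with the lacking diet alone it did not pass in Pfc (−0.83, adjusted p = 0.104).

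Rps2 lies at chr17:24718121-24721927 on the chromosome of Glo1, at a distance of −5.875 Mb, that is, on the side of the lower coordinates. Of its 1329 stretches of 75 bases, 49.44% also occur in other genes, among them 50 pseudogenes, and 8.09% of its exon bases overlap other genes, Snora64 on the same strand and Snhg9 on the opposite strand (0.77%). The coding stretch of exon 3 (chr17:24721193-24721267, plus strand) that is held by the most other genes occurs in 20 pseudogenes, and the first coding stretch held by none lies in exon 1 (chr17:24720276-24720350).
Rps2, shared stretch: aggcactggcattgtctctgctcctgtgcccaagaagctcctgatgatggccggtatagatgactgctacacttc
Rps2, unshared stretch: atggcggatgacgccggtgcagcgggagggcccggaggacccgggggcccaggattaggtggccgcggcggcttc
Reads of the first kind cannot be placed by sequence alone, and reads of the second can be placed among the annotated transcripts. The rest of the genome was not searched for either stretch. Of the other members on chromosome 17, Rpl3l at −5.865 Mb from Glo1 was not tested, and Rps10 (−2.962 Mb), Rpl10a (−2.264 Mb), Rps28 (3.23 Mb), Rps18 (3.359 Mb) and Rpl36 (26.017 Mb) did not pass in KO against WT in any region. Their log2 fold changes in Pfc were −0.28 (adjusted p = 0.185), 0.10 (adjusted p = 0.741), −0.41 (adjusted p = 0.106), 0.13 (adjusted p = 0.485) and 0.73 (adjusted p = 0.0663) in that order.

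Pfc was the region where further members passed. There 5 of 77 members (6.49%) were lower in KO and none higher, where 0.552% of 13223 genes were lower. At an unadjusted p under 0.05 there were 24 members (31.2%), against 14.1% of all genes. The members' median was −0.03, against 0.00 over all genes, and 30 of 77 were above 0, so the list as a whole was near the middle of all genes. In Str and Hip, Rps2 was the only member of 77 to pass (1.30%), where 0.128% and 0.112% of all genes were lower. The members' medians there were −0.07 and 0.04.

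Rpl38, a large-subunit protein known for its part in translating Hox mRNAs in the embryo, had 78.1, 94.5, 99.7, 100.5 and 103 CPM in Pfc of WT on the normal diet, 70.6, 89.7, 97.7, 98.2 and 107 in WT on the lacking diet, 64.7, 67.9, 72.8, 75.6 and 94.9 in KO on the normal diet, and 55.4, 58.2, 60.6, 63.6 and 68.3 in KO on the lacking diet. KO on the lacking diet lay below all WT libraries, and 3 KO libraries on the normal diet lay within the WT range. The log2 fold change was −0.48 ± 0.07 (SE; edgeR adjusted p = 3.61e-04). In Str and Hip, Rpl38 differed by −0.02 and 0.03 and did not pass.

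Rpl39 had 123, 131, 137, 172 and 174 CPM in Pfc of WT on the normal diet, 67.8, 129, 132, 152 and 212 in WT on the lacking diet, 58.5, 62.4, 70.3, 127 and 141 in KO on the normal diet and 51.7, 55.5, 68.7, 79.8 and 84.0 in KO on the lacking diet. The genotypes overlapped, with 4 of 10 KO libraries below the lowest WT library and 4 of 10 WT libraries above the highest KO library. The log2 fold change was −0.86 ± 0.16 (SE; edgeR adjusted p = 0.00539), and in Str and Hip it was 0.18 and −0.11, not passing. Rpl39 lies at chrX:37082518-37085222 and shares 7.62% of its stretches.

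Rpl13, a large-subunit protein, had 35.8, 44.0, 54.0, 58.4 and 61.6 CPM in Pfc of WT on the normal diet, 29.1, 44.9, 51.2, 61.3 and 88.0 in WT on the lacking diet, 27.0, 27.1, 29.3, 44.5 and 56.2 in KO on the normal diet and 20.6, 21.6, 23.3, 26.3 and 32.8 in KO on the lacking diet. The genotypes overlapped, with 6 of 10 KO libraries below the lowest WT library. The log2 fold change was −0.80 ± 0.16 (SE; edgeR adjusted p = 0.00736), and it was −0.02 in both Str and Hip, not passing. Rpl13 shares 79.6% of its stretches with other genes, including 9 pseudogenes.

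Rps21, a small-subunit protein, averaged 124 ± 13.2 CPM in WT and 99.7 ± 15.9 in KO (SD, n = 10), a log2 fold change of −0.32 ± 0.07 (adjusted p = 0.0341). With each of the 20 Pfc libraries left out in turn, the Rps21 call was lost in 13 fits, and limma on log2(RPKM + 1) gave Rps21 an adjusted p of 0.0740. With the normal diet alone, Rpl38, Rpl39, Rpl13 and Rps21 did not pass in Pfc (adjusted p = 0.593, 0.773, 0.907 and 0.907). Rpl39 and Rpl13 were also the members that varied most within groups, as given above.

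**Figure D3:**
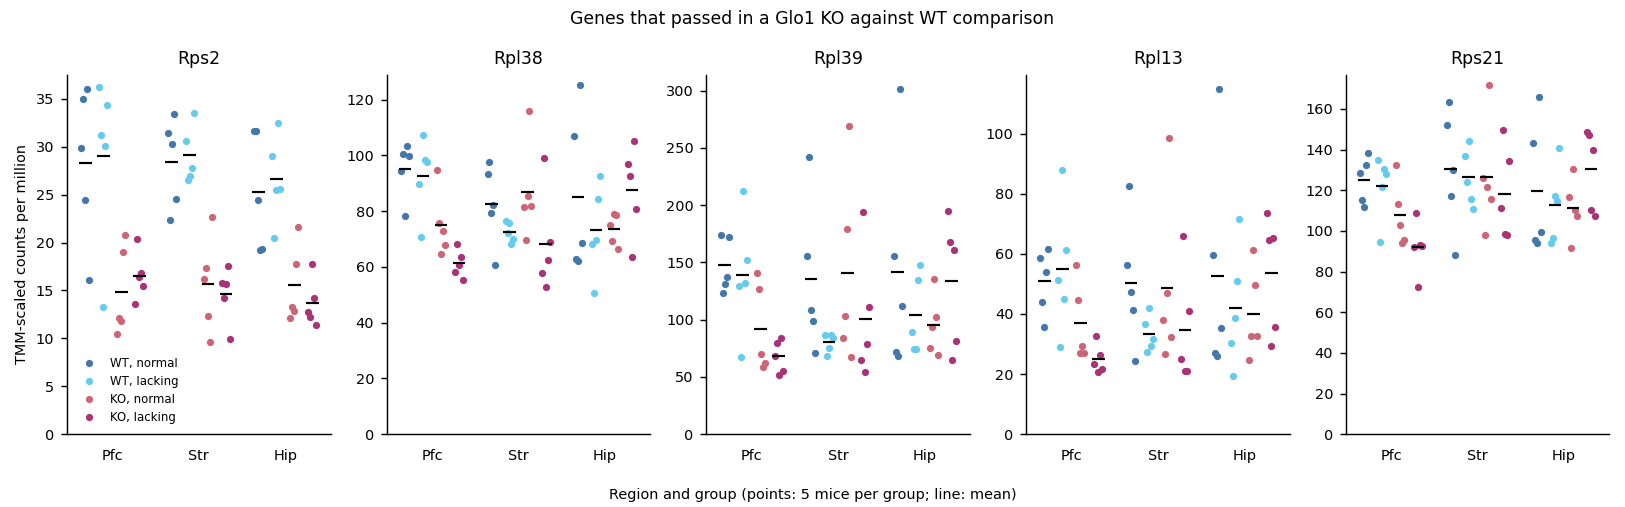
CPM of Rps2, Rpl38, Rpl39, Rpl13 and Rps21 in each library of the 12 groups of 5, with a line at the group mean. Rps2 is lower in KO in Pfc, Str and Hip, with means of 15.7, 15.1 and 14.6 against 28.7, 28.8 and 25.9 CPM in WT; the other 4 genes are lower in KO in Pfc and did not pass in Str or Hip.

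Whether the KO effect itself differed between regions was tested in a single fit over all libraries, a contrast added after the comparisons of KO with WT were seen. No member passed in Str against Pfc, Hip against Pfc or Hip against Str, where 0%, 0.00718% and 0% of 13930 genes passed, and 19, 9 and 6 members (24.7%, 11.7% and 7.79%) had an unadjusted p under 0.05 in edgeR's test, against 9.18%, 6.03% and 5.81% of all genes. The difference of the KO effect in Rps2 was −0.03, 0.05 and 0.08 in these contrasts. For Rpl39 the effect in Str minus that in Pfc was 1.04 (adjusted p = 0.499), and for Rpl38 it was 0.46 (adjusted p = 0.499). The calls in Pfc were thus not shown to be particular to that region.

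RNA quality was similar in both genotypes of Pfc, with mean RIN of 8.26 and 8.40 in the WT groups and 8.38 and 8.54 in the KO groups on the normal and lacking diet. With RIN as a covariate 9 members passed in Pfc, 2 higher and 7 lower in KO, where 189 of all genes passed against 89 without RIN. Without mouse 226 of WT on the lacking diet 13 members passed, and the count over all genes in that fit is not given here. Marker genes lower in KO in Pfc included Slc1a3 (1 of 5 astrocyte markers) and P2ry12 (1 of 5 microglia markers). Astrocyte markers summed to medians of 2108 and 2196 CPM in the WT groups and 1846 and 1756 in the KO groups. Their part in the result was not tested. Of the other lists in Pfc, Vim among the TOP products and 5 of 258 short transcripts were lower in KO, and no ribosomal protein outside the symbol rule, assembly factor, RNA polymerase I gene or mTORC1 gene passed.

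Set directly against WT on the normal diet, KO on the lacking diet gave 3 lower members in Pfc (0.227% of all genes were lower), 1 in Str (0.0526%) and none in Hip (0.0149%). In Pfc these were Rpl38 at −0.65 ± 0.11 (SE; edgeR adjusted p = 0.00179), Rpl39 at −1.13 ± 0.23 (adjusted p = 0.0207) and Rpl13 at −1.04 ± 0.22 (adjusted p = 0.0317), and for each of them the 5 KO libraries lay below the 5 WT libraries. With limma on log2(RPKM + 1), Rpl39 (adjusted p = 0.0776) and Rpl13 (adjusted p = 0.0851) did not pass, and with 1 library left out they were lost in 4 and 7 of 20 fits. In Str, Rps2 was lower at −0.96 ± 0.17 (adjusted p = 0.0171) with no overlap. In Hip, Rps2 differed by −0.90 ± 0.17 (adjusted p = 0.0633), also with no overlap, and 1 member had an unadjusted p under 0.05. DESeq2 called 1 member there, where it called 15 of all genes, and limma called 0 members. The next members of Hip by p were Rpl13a at 0.21 and Rpl10 at −0.21. How many of all genes separate 5 libraries from 5 in this way is not given here. These comparisons share libraries with those of KO and WT over both diets.

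Diet alone gave no passing member. In edgeR's test 0% of all genes passed for the lacking against the normal diet in WT, in KO, or for the interaction of genotype and diet, in any of the 3 regions, and DESeq2 and limma also called 0 members in all 9 comparisons. At an unadjusted p under 0.05, WT gave 0, 6 and 0 members in Pfc, Str and Hip (0%, 7.79% and 0%, against 2.27%, 2.91% and 4.03% of all genes). KO gave 8, 3 and 2 members (10.4%, 3.9% and 2.6%, against 5.19%, 1.68% and 6.56%), and the interaction gave 3, 0 and 5 (3.9%, 0% and 6.49%, against 3.17%, 1.70% and 9.45%). The members' medians stayed between −0.06 and 0.05 in these 9 comparisons.

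The members with the smallest p in each diet comparison were the following. In WT these were Rps13 at a log2 fold change of 0.17, Rpl10a at 0.26 and Rplp0 at 0.24 in Pfc, and Rpl11, a regulator of p53 when free of ribosomes, at 0.31 ± 0.10 (SE), Rpl17 at 0.20 and Rps14 at 0.28 in Str. In WT Hip they were Rpl7a at 0.17, Rpl15 at −0.21 and Rpl37 at 0.22. The groups overlapped for all of them but Rpl11, whose adjusted p was 1.00 in edgeR's test. In KO these were Rpl27 at −0.51 ± 0.15, Rpl37a at −0.28 and Rpl38 at −0.30 in Pfc (edgeR adjusted p = 0.911 for each), Rpl38 at −0.35, Rps6 at −0.16 and Rpl32 at −0.24 in Str, and Rps18 at −0.33 and Rps6 at 0.17 in Hip (adjusted p = 0.719 for each). In the interaction they were Rpl27 at −0.51, Rpl13 at −0.68 and Rpl37a at −0.29 in Pfc, Rpl11 at −0.29, Rpl21 at −0.19 and Rps6 at −0.18 in Str, and Rpl7a at −0.32 (adjusted p = 0.514), Rps18 at −0.44 and Rplp1 at −0.41 in Hip. None of these is a call, and Rps6 had opposite signs in Str and Hip of KO.

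A score per library, the mean log2(CPM + 1) of the 77 tested members, described the group as a whole and was given no test. Its mean was 5.36 ± 0.089 in Pfc (5.22 to 5.52), 5.48 ± 0.091 in Str (5.34 to 5.67) and 5.44 ± 0.085 in Hip (5.25 to 5.59; SD, n = 20). In 19 of 20 mice Str was above Pfc, in 14 Hip was above Pfc and in 9 Hip was above Str. As scaled here, the difference of Str from Pfc, 0.11, exceeded the mean SD within groups of 0.087, and that of Hip from Pfc, 0.075, did not. That SD is between mice, whereas the regions were sampled in the same mice. Under other scalings and member choices Str minus Pfc ranged from 0.090 to 0.129 and Hip minus Pfc from 0.067 to 0.134. Which region stood further from Pfc thus depended on these choices.

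By group, the score in Pfc was 5.38 ± 0.085 in WT on the normal diet, 5.39 ± 0.11 in WT on the lacking diet, 5.36 ± 0.050 in KO on the normal diet and 5.32 ± 0.11 in KO on the lacking diet (SD, n = 5). In Str, in the same order, it was 5.50 ± 0.072, 5.54 ± 0.088, 5.45 ± 0.12 and 5.43 ± 0.067, and in Hip 5.41 ± 0.10, 5.42 ± 0.12, 5.47 ± 0.069 and 5.45 ± 0.056. KO minus WT came to −0.05 in Pfc, −0.08 in Str and 0.04 in Hip. Diet moved the score by 0.01, 0.04 and 0.01 in WT and by −0.04, −0.03 and −0.02 in KO. All of these genotype and diet differences were smaller than the SD within groups. Under other scalings and member choices KO minus WT ranged from −0.10 to −0.02 in Pfc, from −0.12 to −0.05 in Str and from 0.02 to 0.04 in Hip. In Pfc and Str the largest of these were beyond 0.087, but that is the SD of the score as scaled here. The SD within groups of the other scores is not given here. Hip minus Str, −0.04 as scaled here, ranged from −0.06 to 0.04, and the sign of some diet differences also turned.

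The members' slopes on RNA quality leaned below 0. In fits with a mean per group plus RIN, the median slope of the 77 members was −0.08 per RIN unit in Pfc, −0.15 in Str and −0.12 in Hip on the log2 scale, against 0.001, 0.003 and −0.005 over all genes. Slopes were above 0 for 19, 16 and 29 of 77 members. The 6 ribosomal proteins outside the rule had median slopes of −0.15, −0.23 and −0.30, and the short transcripts had −0.08, −0.10 and −0.08. At an unadjusted p under 0.05 there were 15, 14 and 16 members, that is 19.5%, 18.2% and 20.8%, against 15.3%, 7.16% and 23.0% of all genes.

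Single slopes rarely passed. No member passed in Pfc or Str, where 0% and 0% of all genes passed in edgeR's test and DESeq2 and limma also called 0 members. In Hip, where 0.709% of 13393 genes passed, 1 of 77 members (1.30%) passed with a slope below 0, and it was lost in 16 of 20 fits with 1 library left out. The steepest members by p were Rplp0 at −0.43, Rps29 at −0.57 and Rpl8 at −0.28 in Pfc (adjusted p = 0.242 for each) and Rpl37 at −0.71 (adjusted p = 0.582), Rplp2 at −0.68 and Rpl41 at −0.51 in Str. Rpl39 had slopes of 0.37, 1.07 and 0.44 in Pfc, Str and Hip and Rps2 −0.51, −0.30 and −0.55, none of them passing.

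**Figure D4:**
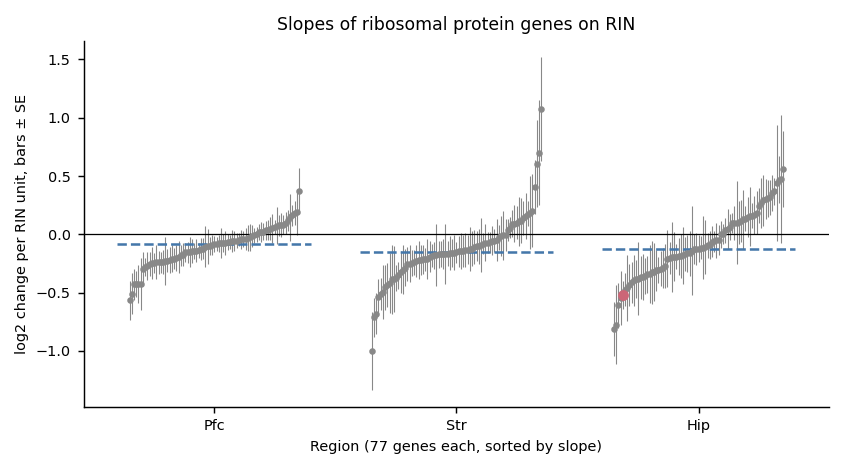
Slope on RIN (log2 per RIN unit, ± SE) of the 77 ribosomal protein genes in each region over 20 libraries, with the members' median dashed. The medians are −0.08, −0.15 and −0.12, and 1 slope in Hip, in red, has an adjusted p under 0.05.

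The score was set against RIN within groups. In 11 groups with a single library of highest RIN, that library was below its group's mean score in 10, and in 11 groups with a single library of lowest RIN, that library was above the mean score in 6. The library of mouse 244 in Pfc, KO on the lacking diet, with RIN 7.8, had 70 of 77 members above their group means, and that of mouse 272 in Hip, WT on the normal diet, with RIN 8.6, had 68. Of the short transcripts with a mean of at least 1 CPM, 76.8% and 78.9% were above their group means in these libraries. In contrast, the Pfc library of mouse 241, WT on the lacking diet, with RIN 8.2, had 17 of 77 members above their group means, and 40.2% of the short transcripts. The short transcripts thus moved to the same side as the members in these libraries. RIN itself averaged between 8.14 (Str, WT on the lacking diet) and 8.90 (Hip, KO on the lacking diet) over the 12 groups.

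**Figure D5:**
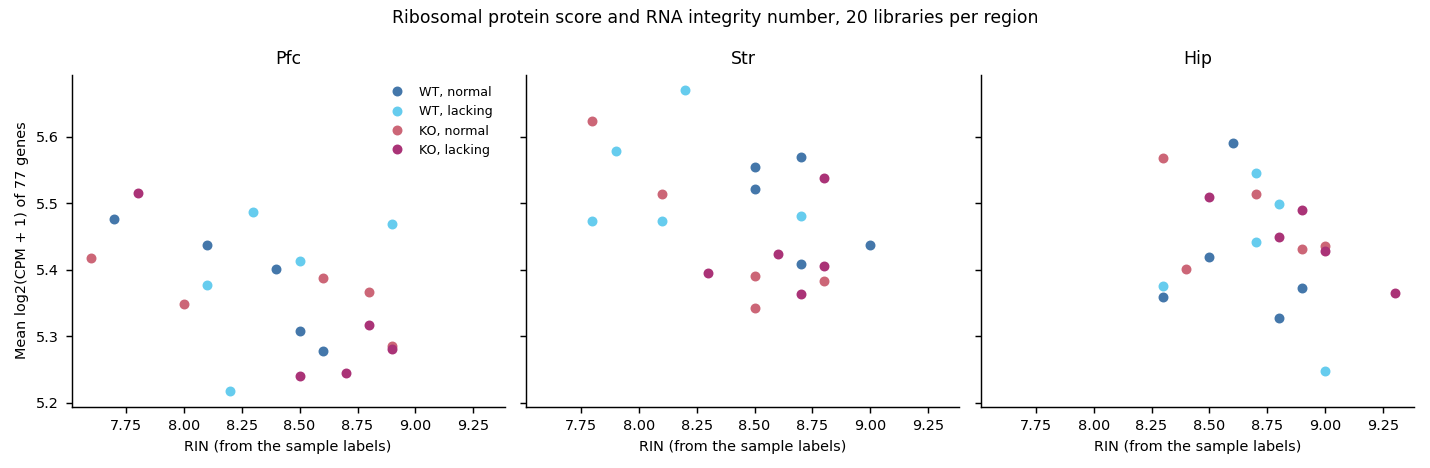
Score of the 77 ribosomal protein genes (mean log2(CPM + 1)) against RIN for the 20 libraries of each region, coloured by group. Scores lie between 5.22 and 5.67 over a RIN range of 7.6 to 9.3.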

How the data were processed

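RNA was extracted with a miRNeasy kit, poly(A) mRNA was taken from 2 µg of total RNA, and libraries were read as 75-base single ends, per the labels' protocols. STAR 2.7.1a, HTSeq 0.9.1 and mm10 are named in the submitters' processing notes; the annotation, strand setting and handling of reads that fit several places are not given in the sources used here. The authors deposited 1 table of raw counts per gene and 1 of RPKM. Deposited RPKM equalled count divided by length and library total for all 18514 genes with counts, which gave the lengths, and those of 13566 of 18064 matched genes equalled the union exon length of GENCODE M21 (GRCm38), as did those of 46 of the 77 tested members. Levels over the union exon length were added after this was seen.

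Counts were tested with edgeR 4.0.16 in R 4.3.3 (TMM, filterByExpr with a minimum count of 10 and total of 15, quasi-likelihood F-test, Benjamini-Hochberg over all genes tested, threshold 0.05). Regions were compared in 1 fit of 60 libraries, and genotype and diet in 1 fit of 20 libraries per region, each with a mean per group. CPM are scaled by TMM over 60 libraries. The score averages members with a mean of at least 1 CPM. DESeq2 1.42.0, limma 3.58.1 on log2(RPKM + 1), other scalings and filters, RIN as a covariate, single diets, a mouse block and each mouse left out were the alternatives. Leaving out a mouse drops 1 library in a fit within a region and all its libraries in a fit between regions. Some named genes are not reported here. The members and lists were chosen with earlier results of these data known. Named members were the 5 highest and 5 lowest by RPKM, the 4 largest passing rises and falls per region contrast, all passing members (otherwise the 3 smallest p) per comparison, those on the chromosome of Glo1 and the paralogues. Marker lists of cell types served as descriptions.

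A mouse has the same number in all 3 regions in the labels, so the regions are paired by animal; same-mouse libraries deviated together with a mean correlation of 0.0584 over 60 pairs, against −0.0135 over 240 pairs of different mice. The groups are 5 separate mice each, and the 120 replicate pairs differed by more than sampling noise (chi-square per gene of 1.97 to 27.5). In data simulated from Pfc, KO against WT (13156 genes), 52% of genes changed 1.25-fold, 90% changed 1.5-fold and 100% changed 4-fold were found, with 3 false among 170 calls.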

Additional observations from a re-analysis of the deposited data

Results flagged for a closer look

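In 96 sets of 5 values, made of the score and 7 named members in 12 groups, 4 had a library whose gap to the nearest other value was too large a share of the range by Dixon's test, where chance alone gives about 4.8 such sets.

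The Pfc library of mouse 241, WT on the lacking diet, was low in Rps2 at 13.3 CPM, with the other 4 libraries at 30.1 to 36.2. The Pfc library of mouse 244, KO on the lacking diet, had a score of 5.52, with the others at 5.24 to 5.32. In Str, Rpl31 of mouse 259, WT on the lacking diet, was at 82.6 CPM with the others at 105 to 113, and it was still above every Pfc and Hip library. Rpl13 of mouse 381, KO on the normal diet, was at 98.6 CPM in Str with the others at 26.8 to 46.8.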

How the results depend on the processing

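Under other settings, 147 recounts of passing members stayed within 1.5 times the count and 24 did not, and no named member reversed. A log2 fold change of at least 0.3 left 9 members in Str against Pfc, 1 in Hip against Pfc and 4 in Hip against Str. Over all genes 6739, 5005 and 6101 were left, against 9743, 8260 and 9256 in the main fit. WT mice on the normal diet alone gave 18, 8 and 9 members, where 6391, 5010 and 5861 of all genes passed. Hip against Pfc rose to 35 with limma and to 38 without TMM factors, where the count over all genes went from 8260 to 8565 and 8578. With the mouse as a replicate block the pairing by animal gave 38, 24 and 25 members, and it changed no call of a named member. For KO against WT in Pfc, DESeq2 called 8 members, RIN as a covariate 9, the normal diet alone 0 and the lacking diet alone 3. Over all genes these Pfc fits called 230, 189, 16 and 31, against 89 in the main fit. The normal diet alone gave 0 members in Str and 0 in Hip, where 8 and 4 of all genes passed. For KO lacking against WT normal in Pfc, DESeq2 called 6, limma 1, no filter 5, RIN 6 and a fit of only these groups 8. Over all genes these Pfc fits called 142, 21, 81, 95 and 111, against 37 in the main fit. In Hip DESeq2 and no filter called 1 each, where 15 and 9 of all genes passed, against 2 in the main fit. For the slope on RIN in Hip, DESeq2 called 5, TMM factors without the members 0 and a fit without group means 3. Over all genes these slope fits called 828, 59 and 586, against 95 in the main fit.

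With all libraries of 1 mouse left out, members passing ranged from 28 to 40 (Str against Pfc), 18 to 24 (Hip against Pfc) and 20 to 28 (Hip against Str). Within a region this leaves out 1 library. KO against WT then gave 4 to 13 in Pfc (13 without mouse 226, WT lacking, and 8 without mouse 267, KO normal) and 1 to 1 in Str and Hip. KO lacking against WT normal gave 1 to 6 in Pfc (6 without mouse 226 or 241, WT lacking; 1 without 272 or 317, WT normal, or 325 or 452, KO lacking), 0 to 1 in Str (0 without 244 or 452, KO lacking, or 272, 283 or 286, WT normal) and 0 to 1 in Hip (1 without 226, WT lacking, or 286 or 317, WT normal). The RIN slope gave 0 to 8 in Pfc (8 without mouse 241, WT lacking) and 0 to 2 in Hip (2 without mouse 339, KO lacking). Causes were not tested. At these depths, 4 paralogues were too rare to test.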
